A study of Mus musculus with 19 samples.

Results

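Ribosome footprints were compared with RNA inside alveolar type 2 (AT2) organoids, gene by gene. The comparison used 6 of the 19 samples of the series: the 3 libraries labelled as AT2 footprints and the 3 labelled as AT2 RNA. AT2 cells are the surfactant-secreting epithelial cells of the lung alveolus, and organoids are small epithelial structures grown in a gel from such cells. All 6 libraries came from mouse organoids of strain C57BL/6, plated for 48 h on plates rinsed with Matrigel and given 100 µM cycloheximide for 5 min before harvest, with no other agent or allele in the labels. The series also holds lung adenocarcinoma organoids, which enter no value here except through the gene names described below. For RNA the labels repeat the text on footprint preparation, and a method of its own, such as poly(A) selection, was not found in the sources used here. The series' design text names 2 AT2 cultures, without saying which libraries came from them, and nothing in the labels ties the 3 libraries of an assay to separate cultures, so n = 3 counts libraries and the spread behind each p-value is that between libraries and may be technical.

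Ribosome profiling sequences the short stretches of mRNA that ribosomes cover, and the number of such footprints on a gene depends on how much mRNA there is, how often ribosomes start on it and how long they take to pass. Dividing footprints by RNA therefore gives a relative measure of ribosome load. Both were taken here as counts not divided by length, so the ratio is no number of ribosomes per mRNA molecule. Several classes of mRNA are known for particular control of this load: ferritin mRNAs carry an iron-responsive element that blocks starts when iron is scarce, mRNAs of ribosomal proteins and elongation factors begin with a pyrimidine tract (5′ TOP) read by growth signalling, and stress mRNAs such as Atf4 carry upstream open reading frames (uORFs) that divert scanning ribosomes. Each of these classes, and other groups of genes with a shared product or place in the cell, is described below.

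Footprint libraries held 3030290 to 3834358 estimated counts and RNA libraries 4122819 to 10233520, of which at least 65.0% fell on transcripts that the series' translated-ORF lists pair with a gene name. This gave 7261 genes, 4110 of them named only through tumor lists, and 6593 passed the filter on low counts. Footprint library 1 stood apart: its log2 levels correlated with those of footprint libraries 2 and 3 at r = 0.767 and 0.748, against 0.914 between these 2 (across genes, which are not independent replicates), and 52.1% of its paired counts lay on 1 gene, Mettl26, against 4.14% and 1.99% in the other footprint libraries. RNA library 3 correlated with the other RNA libraries at 0.858 and 0.864, against 0.954 between those. Of 12 AT2 markers 8 were paired and summed to 1424 to 2800 CPM (counts scaled to a common library size) in footprints and 1858 to 3461 in RNA, although Sftpc was not among them and Slc34a2 was at 0 in 5 of the 6 libraries. Of 7 AT1 markers 3 were paired (416 to 986 CPM in footprints, 1373 to 2507 in RNA), mostly Aqp5, and the paired leukocyte markers Cd14 and Mrc1 summed to at most 17.6 CPM. Markers of club, ciliated, basal, fibroblast and endothelial cells were not paired and are not analysed here, and in such bulk libraries fewer cells of a type and less RNA per cell cannot be told apart.

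Of 6593 genes tested 25.9% passed: 889 were higher in footprints than in RNA (13.5%) and 816 were lower (12.4%), by edgeR's quasi-likelihood test at a Benjamini-Hochberg adjusted p under 0.05. The number of members called in each gene list below is to be read beside these shares of all genes. All differences below are log2 of footprints over RNA relative to the typical gene (median 0.02), with the standard error of the fit, and all adjusted p-values are from that test over all 6593 genes. The spread between genes was wide, with a 5th percentile of -2.32 and a 95th percentile of 2.52. In 1591 genes (24.1%) every footprint library lay above every RNA library in CPM, and in 1643 (24.9%) every one lay below. Each gene is measured against the others, so the balance of the calls depends on the scaling: with library sizes from all transcripts rather than paired genes, all differences shifted by -0.34 in the median and the calls became 526 higher and 1181 lower. With the deposited TPM, also scaled over all transcripts, limma called 404 higher and 815 lower. The number of calls also rested on single libraries. It was 817 without RNA library 1, 728 without RNA library 2, 957 and 958 without footprint library 2 or 3, and 2265 without footprint library 1 (33.6% of the genes tested then).

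**Figure D1:**
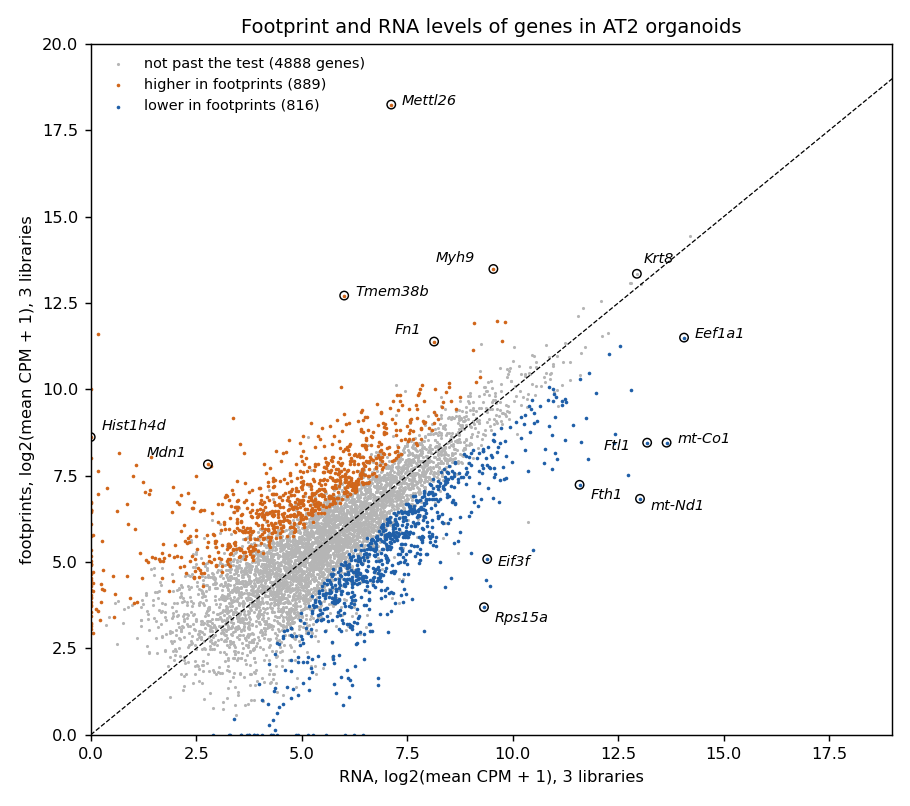
Mean level of each of 6593 genes in 3 RNA libraries (x axis) and 3 footprint libraries (y axis), both as log2(CPM + 1), with the line of equal levels dashed. The 889 genes called higher lie above the line and the 816 called lower below it. Mettl26 and Tmem38b lie farthest above it among well-covered genes, while Ftl1, Fth1, Rps15a and the mitochondrially encoded genes lie far below.

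The coding length of a gene ran with its footprints per RNA across the whole table, and each gene group below has to be read beside it. Over 6490 genes with a known coding length the log2 difference correlated with coding length at Spearman rho = 0.548, and at 0.444 without footprint library 1 (across genes of the same 6 libraries, given as a description). Genes with a coding sequence of up to 300 bases had a median of -0.98, and 37.1% of these 132 genes were lower while 3.03% were higher. Genes with more than 6000 coding bases had a median of 2.32, and 65.6% of these 195 genes were higher while 0 were lower. Both assays contributed, since RNA CPM fell with coding length (rho = -0.278) and footprint CPM rose weakly with it (rho = 0.106). The length of the 5′ UTR showed almost no such relation (rho = 0.041) and that of the 3′ UTR a weaker one (rho = 0.24). The length of the whole transcript ran with the difference about as closely as coding length (rho = 0.541). The RNA level ran against it, at rho = -0.515 with mean RNA TPM over 6593 genes. Median RNA TPM was 4.78 in genes called higher and 63.9 in genes called lower. RNA is also the divisor of the difference, so part of this relation is built in. Genes called higher had a median coding length of 2961 bases and genes called lower 846, against 1461 in all genes tested.

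**Figure D2:**
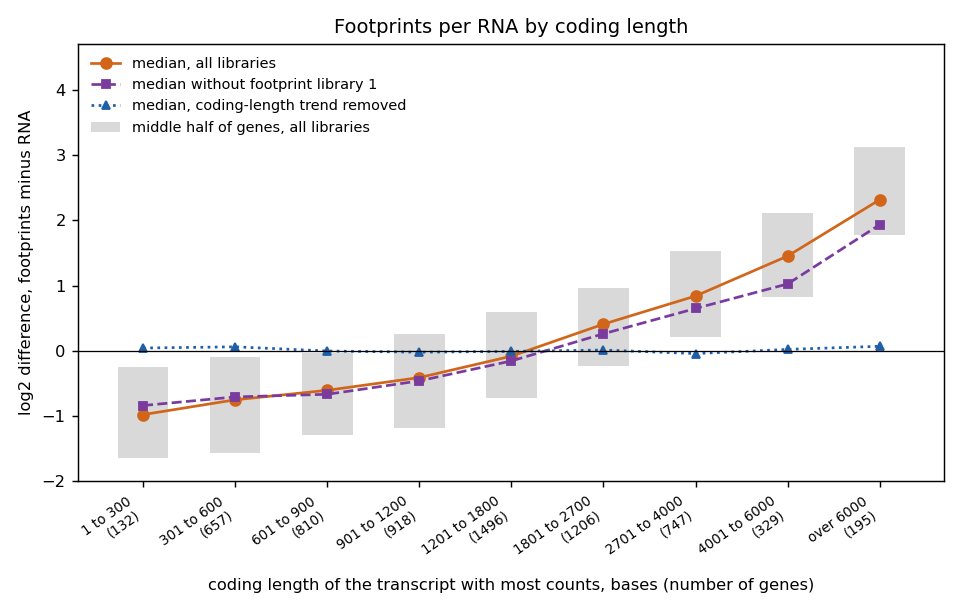
Median log2 difference of footprints minus RNA (y axis) in 9 classes of coding length (x axis, number of genes in parentheses), with grey bars from the 25th to the 75th percentile of the genes. The median climbs from -0.98 to 2.32 over the classes, does so also without footprint library 1 (-0.84 to 1.93), and stays near 0 once the trend with coding length is removed.

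A second fit, added after these values were seen, removed the smooth trend with coding length, so that each gene was compared with genes of like length. It called 382 genes higher (5.89%) and 412 lower (6.35%) of 6490. Of the 1705 genes called in the first fit 38.8% were called again in it, all but 1 in the same direction. Values from this fit are named length-adjusted below. They still correlated with mean RNA TPM (rho = -0.254), 3′ UTR length (rho = 0.213) and transcript length (rho = 0.163), for which the fit did not adjust. What sets the trend with coding length was not tested.

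Iron storage mRNAs had among the lowest footprints per RNA of all well-covered genes. Ftl1, the ferritin light chain (GRCm38.p6 chr7:45457944-45459886, minus strand), stood at 367, 339 and 345 CPM in the 3 footprint libraries and at 8822, 8843 and 10303 CPM in the 3 RNA libraries. The groups did not overlap, and means of 350.4 ± 14.6 and 9323 ± 849 CPM (SD, n = 3) gave a log2 difference of -4.73 ± 0.26 (adjusted p = 0.000686). Fth1, the ferritin heavy chain (chr19:9980600-9985111, plus strand), stood at 159, 139.6 and 151 CPM in footprints and 2825, 2933 and 3456 CPM in RNA, again without overlap (-4.36 ± 0.25, adjusted p = 0.000686). Both were lower with each library left out in turn (-4.82 to -4.70 and -4.45 to -4.31) and after length adjustment (-3.97 and -3.59). On transcripts of the AT2 ORF lists alone Fth1 turned to 4.63. This value cannot include its main coding transcript, which held 140, 332 and 353 footprint counts against 20968, 23202 and 9481 RNA counts. A retained-intron transcript of Fth1 held 51, 41 and 95 footprint counts against 0, 3 and 8 RNA counts. Of the Fth1 footprints 19% lay on retained-intron transcripts, against 0.0358% of its RNA counts. Ferritin has many near-identical pseudogene copies, so the share of reads credited to these transcripts is uncertain in both assays.

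Tfrc, the transferrin receptor, whose iron-responsive elements lie after the stop codon and act on mRNA stability, differed in the other direction. It stood at 109, 281 and 206 CPM in footprints and at 73.4, 76.2 and 87.4 CPM in RNA, without overlap (1.34 ± 0.35, adjusted p = 0.031). With 1 library left out it passed the test in 1 of 6 fits, and its length-adjusted value was 0.90 (adjusted p = 0.135). Of 10 iron-responsive-element mRNAs tested these 3 passed, 1 higher and 2 lower, against 13.5% higher and 12.4% lower among all genes, and the list's median was 0.30.

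mRNAs of the cytosolic ribosome were mostly low in footprints per RNA where they were measured. Of 12 large-subunit proteins tested 7 were lower and 1 higher (median -1.18), and of 15 small-subunit proteins 8 were lower and 0 higher (median -1.25). The lists hold 49 and 35 genes, so these counts cover only the measured ones. After length adjustment 4 and 4 were lower and 0 and 1 higher (against 6.35% and 5.89% of all genes), with medians of -0.57 and -0.62.

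Rplp0 and Rplp1, proteins of the ribosomal stalk, showed the difference in every library. Rplp0 stood at 459, 441 and 350.0 CPM in footprints and 4559, 4541 and 7372 CPM in RNA (-3.72 ± 0.32, adjusted p = 0.00153). Rplp1 stood at 225, 279 and 253 CPM against 3065, 2766 and 4759.6 CPM (-3.80 ± 0.31, adjusted p = 0.00153). In both genes RNA library 3 was the highest of all, and no footprint library came near an RNA library. Rps15a, a small-subunit protein, was lower still, at 13.7, 18.8 and 3.36 CPM against 481, 519.8 and 914 CPM (-5.76 ± 0.65, adjusted p = 0.00202). Rps2 was far more abundant in footprints, at 579, 1173 and 1264 CPM, yet also below its RNA at 5576, 5577 and 10291 CPM (-2.83 ± 0.42, adjusted p = 0.00436). Short reads from ribosomal protein mRNAs can be split with processed pseudogenes, so single values in this family are uncertain.

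Elongation factors and other mRNAs of the TOP class gave 7 lower and 0 higher of 16 tested, with a median of -0.84 (-0.81 after length adjustment, 5 lower and 0 higher). Eef1a1, which brings aminoacyl-tRNA to the ribosome, stood at 2098, 3698 and 2885 CPM in footprints and at 16529.6, 16085 and 18654 CPM in RNA. The groups were far apart (-2.56 ± 0.30, adjusted p = 0.00207). Eef2, which moves the ribosome along the mRNA, was much closer to its RNA: 2808, 3514 and 3284 CPM against 4885, 4807 and 5039 CPM, a difference of -0.62 ± 0.22 that did not pass (adjusted p = 0.0786), while its length-adjusted value did (-1.20, adjusted p = 0.0175). Pabpc1, the poly(A)-binding protein, was lower at -2.83 ± 0.73 (adjusted p = 0.0287), with footprints of 421, 256 and 185 CPM. Its RNA was 902 and 789.6 CPM in libraries 1 and 2 and 4447 in library 3, and without RNA library 3 the difference was the smallest of those with 1 library left out, at -1.60.

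The start regions of some of these genes are shown because TOP control is read from the first bases of the mRNA. Windows of 15 bases before and 15 after the annotated start were taken from RefSeq on GRCm38.p6, 5′ to 3′ on the gene's strand, and capitals mark the pyrimidine words searched, CTCTTT or CTTTCC. Shown are 6 tested genes of the ribosomal protein and TOP lists with a word in this window. Rps15a, Eif3f and Rack1 were lower in footprints per RNA, and Rps9 (-1.06, adjusted p = 0.0818), Rpl13a (-1.08, adjusted p = 0.0853) and Rps10 (0.44, adjusted p = 0.804) did not pass.
Rps15a (chr7:118116133-118116162, minus strand): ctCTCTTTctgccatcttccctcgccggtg
Eif3f (chr7:108934400-108934429, plus strand): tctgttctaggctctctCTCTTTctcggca
Rack1 (chr11:48800345-48800374, plus strand): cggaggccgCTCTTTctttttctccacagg
Rps9 (chr7:3704026-3704055, plus strand): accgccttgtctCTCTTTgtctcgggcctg
Rpl13a (chr7:45128731-45128760, minus strand): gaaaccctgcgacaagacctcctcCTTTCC
Rps10 (chr17:27635230-27635259, minus strand): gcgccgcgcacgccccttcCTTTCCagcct
In Rps15a and Rack1 the word lies before the annotated start, in Rps9 it spans the start, and in the other genes it lies after it. By this annotation neither searched word begins any of these mRNAs, and other pyrimidine runs were not searched. In Rps15a, Rack1, Eif3f and Rps10 the bases from the annotated start on read C and then further pyrimidines.
In a window of 40 bases around the start, 8 of 25 tested ribosomal protein and TOP genes with a window held either word on the gene's strand (32.0%) and 0 held one on the other strand, against 3.13% and 2.70% of all 22862 genes with a window. Among the 4155 tested genes with a window 2.55% held either word on the gene's strand, with 2.45% among those called lower and 2.52% among those called higher. A match describes the letters and not a binding site, and a window without one says nothing about the factor that reads them.

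Initiation factors were mixed, with 3 higher and 6 lower of 35 tested and a median of -0.22 (8.57% and 17.1%, against 13.5% and 12.4% of all genes). Eif3f, a subunit of the large scaffold factor eIF3, was the lowest: 23.3, 39.4 and 36.2 CPM in footprints against 661, 612 and 745 CPM in RNA (-4.33 ± 0.29, adjusted p = 0.00143; -3.97 after length adjustment). Eif3a, the largest subunit of the same factor, was the highest, at 1217, 2767 and 2724 CPM against 588, 585 and 428 CPM (2.07 ± 0.37, adjusted p = 0.00789). Neither gene's groups overlapped, and subunits of 1 complex thus lay at both ends. Length adjustment left Eif3a at 0.86 (adjusted p = 0.155). Eif4g1, the scaffold of the cap-binding complex, was higher at 1.11 ± 0.22 (adjusted p = 0.0121), with a length-adjusted value of -0.35 that did not pass. Eif5b, which joins the ribosomal subunits, was called higher at 1.44 ± 0.34 (adjusted p = 0.0204), but only 9.45% of its footprints and 30.1% of its RNA counts lay on protein-coding transcripts, and on those alone its difference was -0.04.

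Enzymes that charge tRNAs and factors that build ribosomes also serve translation, and the calls among them were mostly higher. Of 22 aminoacyl-tRNA synthetases 5 were higher and 0 lower (median 0.66), and 13 were higher without footprint library 1 (15.1% of all genes). Eprs, which charges glutamate and proline tRNAs, stood at 229, 1241 and 967 CPM in footprints and 176, 139.5 and 109.6 CPM in RNA (2.52 ± 0.58, adjusted p = 0.0197), with footprint library 1 well below the other 2. With 1 library left out Eprs passed in 1 of 6 fits. Of 48 ribosome biogenesis genes 12 were higher and 0 lower (median 0.70), and 23 were higher and 1 lower without footprint library 1. Utp20 and Heatr1, long proteins of the machinery that processes the small-subunit rRNA, led them at 3.75 ± 0.52 (adjusted p = 0.0036) and 3.28 ± 0.40 (adjusted p = 0.00247). After length adjustment 0 synthetases and 3 biogenesis genes were higher, and the medians were 0.23 and 0.48.

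Atf4, the transcription factor of the integrated stress response and the textbook case of uORF control, was lower in footprints per RNA. It stood at 149.7, 74.4 and 83.2 CPM in footprints and at 361, 371 and 465 CPM in RNA, with no overlap (-1.97 ± 0.32, adjusted p = 0.00601; length-adjusted -1.58, adjusted p = 0.0214). Its transcripts differed. The main coding transcript held 123, 96 and 130 estimated footprint counts against 2704, 2952 and 1282 RNA counts, whereas a second coding transcript held 10, 104 and 101 footprint counts and 0 RNA counts in all 3 libraries. On transcripts of the AT2 ORF lists alone the difference turned to 1.56.

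Of 16 mRNAs known for uORF control, 3 were higher and 3 lower (18.8% each, against 13.5% and 12.4% of all genes), and the median was 0.14. After length adjustment 0 were higher and 2 lower, the median was -0.26, and of the genes named next only Ppp1r15a still passed (-2.10, adjusted p = 0.0327). Ppp1r15a, the inducible subunit that removes the stress mark from eIF2, was lower (16.9, 7.74 and 6.71 CPM against 36.0, 36.0 and 38.1 CPM, -1.85 ± 0.49, adjusted p = 0.0301). Ppp1r15b, its constitutive partner, was higher (82.9, 108 and 108 CPM against 47.9, 25.7 and 21.1 CPM, 1.65 ± 0.38, adjusted p = 0.0186). Both pairs of groups were apart, and these related genes differed in direction, although the difference between them was not tested. With 1 library left out, Ppp1r15a passed in 1 of 6 fits and Ppp1r15b in 3. Ucp2, a mitochondrial carrier with an inhibitory uORF, was lower at -1.62 ± 0.39 (adjusted p = 0.0237), and Slc7a1, an arginine transporter, was higher at 1.24 ± 0.38 (adjusted p = 0.0482), a call that no fit with 1 library left out repeated.

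The 2 AT2 ORF lists, made from further AT2 samples, gave a second readout of uORFs. They listed a uORF or a start-overlapping uORF in 53 of the genes tested here. Of these 53 genes 4 were higher and 13 lower, with a median of -0.14. Among all genes tested 13.5% were higher and 12.4% lower. After length adjustment the counts were 4 and 7, against 5.89% and 6.35% of all genes. The largest differences among the genes called, named after the values were seen, were those of Lcor and Plpp2. Lcor was higher at 4.82 with a uORF of 141 bases and 8 P-sites (single ribosome positions), but its RNA was near the floor (1.07, 1.99 and 0.705 CPM). Plpp2 was lower at -2.42 with a start-overlapping uORF of 156 bases and 8 P-sites. Hras, a growth-signalling GTPase, was lower at -2.17, and its start-overlapping uORF held 14 P-sites. Among the genes called, the most uORF P-sites lay in Scd2, a fatty acid desaturase that was higher at 1.65 (101 P-sites, 45 in frame), and in Gtf2h5, a transcription and repair factor that was lower at -1.44 (53 P-sites, 36 in frame). Genes with a listed uORF were thus called in either direction, with more of them lower (13 of 53) than higher (4 of 53).

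Other mRNAs with special decoding were measured in small numbers. Of 6 polyamine genes 2 were lower and 0 higher. Azin1, the antizyme inhibitor, stood at 30.6, 18.0 and 21.8 CPM in footprints and at 117, 123 and 103 CPM in RNA (-2.30 ± 0.31, adjusted p = 0.00301), without overlap. Oaz1, the antizyme whose synthesis needs a ribosomal frameshift, was lower at -1.08 ± 0.26 (adjusted p = 0.0211), and its length-adjusted value of -0.41 did not pass. Of 12 selenoprotein mRNAs, which read a stop codon as selenocysteine, 3 were lower and 0 higher: Msrb1 at -2.52 ± 0.32, Gpx1 at -1.89 ± 0.39 and Selenow at -1.60 ± 0.24. Msrb1 alone of these 3 passed after length adjustment (-1.59, adjusted p = 0.0184).

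**Figure D3:**
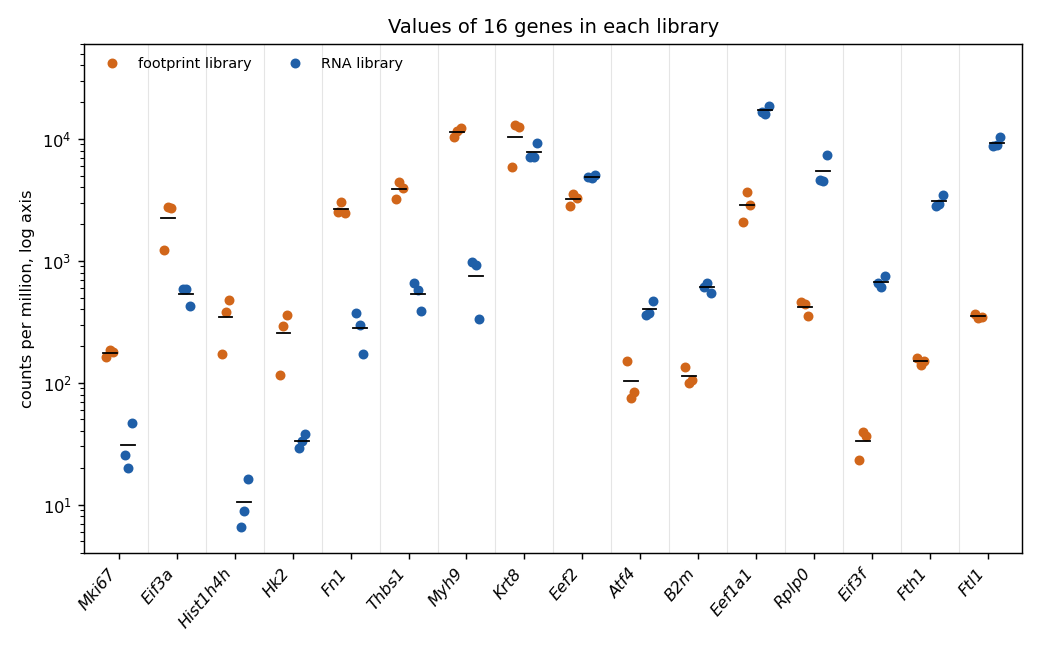
CPM (log axis) of 16 genes in each footprint library (orange) and each RNA library (blue), with the mean of the 3 as a bar. From left to right the genes go from footprints above RNA (Mki67, Eif3a, Hist1h4h, Hk2, Fn1, Thbs1, Myh9), through near-equal levels (Krt8), to footprints below RNA (Eef2 to Ftl1). In 14 of the 16 genes the test was passed, and Krt8 and Eef2 are the other two.

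Genes encoded in mitochondrial DNA, which mitochondrial ribosomes translate, had very few footprints for their RNA, with 4 of 5 tested lower and 0 higher (median -5.20). mt-Co1, a subunit of cytochrome oxidase, stood at 874, 109 and 68.5 CPM in footprints against 10276, 10064 and 18163 CPM in RNA (-5.20 ± 1.05, adjusted p = 0.0125). mt-Nd1 showed the same at 323, 8.84 and 6.38 CPM against 7685, 7145 and 10041 CPM (-6.23 ± 1.57, adjusted p = 0.0261). Footprint library 1 held many times the level of the other 2 in both genes. Without it the values were -7.22 for mt-Co1 and -10.14 for mt-Nd1, and all 5 genes were lower. With each of the 6 libraries left out in turn, mt-Co1 passed in 6 fits and mt-Nd1 in 2.

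Nuclear genes of oxidative phosphorylation and of the mitochondrial ribosome were also on the lower side before length was considered. Of 62 oxidative phosphorylation genes 21 were lower and 0 higher (median -0.54), and of 52 mitochondrial ribosomal proteins 20 were lower and 0 higher (median -1.21). Both lists hold short proteins, with median coding lengths of 453 and 583.5 bases. After length adjustment the first list had 5 lower and 3 higher with a median of 0.09, and the second 4 lower and 0 higher with a median of -0.50. Atp5d, a subunit of the ATP synthase, remained among those lower: it stood at 74.8, 89.1 and 96.3 CPM in footprints and 473, 535 and 532 CPM in RNA (-2.56 ± 0.22, adjusted p = 0.00153; length-adjusted -1.77). Cox7a2l, a factor of respiratory supercomplexes, was lower at -5.08 ± 0.97 (adjusted p = 0.0103), with footprints of 53.9, 6.26 and 3.69 CPM against RNA of 602, 634 and 745 CPM. Mrpl38 of the large mitochondrial subunit was lower at -2.69 ± 0.46 (adjusted p = 0.00685; length-adjusted -2.37). Cox5b had 0 estimated footprint counts in all 3 libraries against 73.9, 25.1 and 40.2 CPM of RNA, at least 109-fold lower at a floor of 3 counts over the footprint libraries. However, the ORF list of AT2 sample 1 held a Cox5b ORF of 225 bases with 9 P-sites, 6 of them in frame. The bound is thus uncertain, and how reads were credited to this short gene was not tested.

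Replication-dependent histone genes were the reverse. Their mRNAs, made in S phase, end in a stem-loop rather than the poly(A) tail of other mRNAs. Of 32 tested 29 were higher and 1 lower, with a median of 7.26, the highest of the lists measured, and 9 of them had 0 RNA counts in all 3 libraries. These 9 passed the low-count filter through their footprints alone, and all 35 tested genes with 0 RNA counts were called higher. Their calls were thus largely set by that filter. With these 9 at their lower bounds the median was also 7.26, which is not a separate check. After length adjustment 30 were higher and 0 lower. These genes are short (median 381 coding bases), so they lay far from the general trend with length. No source used here names the method of the RNA libraries; its part in this difference was not tested, and single genes are uncertain because histone copies are nearly identical.

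Hist1h4d, an H4 gene, stood at 187, 438 and 552 CPM in footprints and at 0 in every RNA library, at least 2705-fold higher at a floor of 3 counts over the RNA libraries. Hist1h4h had some RNA, at 6.54, 8.85 and 16.2 CPM, and 171, 380.1 and 481 CPM of footprints (5.07 ± 0.54, adjusted p = 0.00181). Footprint library 1 was the lowest of the 3 in both. Of the genes with RNA above 40 CPM in every library, Hist1h1c stood at 303, 357 and 451 CPM in footprints against 303, 315 and 239 CPM in RNA and did not pass (0.37 ± 0.24, adjusted p = 0.295). Hist1h2bc was lower, at 69.2, 111 and 141 CPM against 322, 349.9 and 233 CPM (-1.49 ± 0.32, adjusted p = 0.0151). Hist3h2a, the third of them, was higher by 1.33 ± 0.41 (adjusted p = 0.0487). The other gene that did not pass, Hist1h2bh, had little RNA (at most 0.997 CPM) and footprints of 30.6, 3.68 and 7.05 CPM (4.53 ± 1.44, adjusted p = 0.0541).

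**Figure D4:**
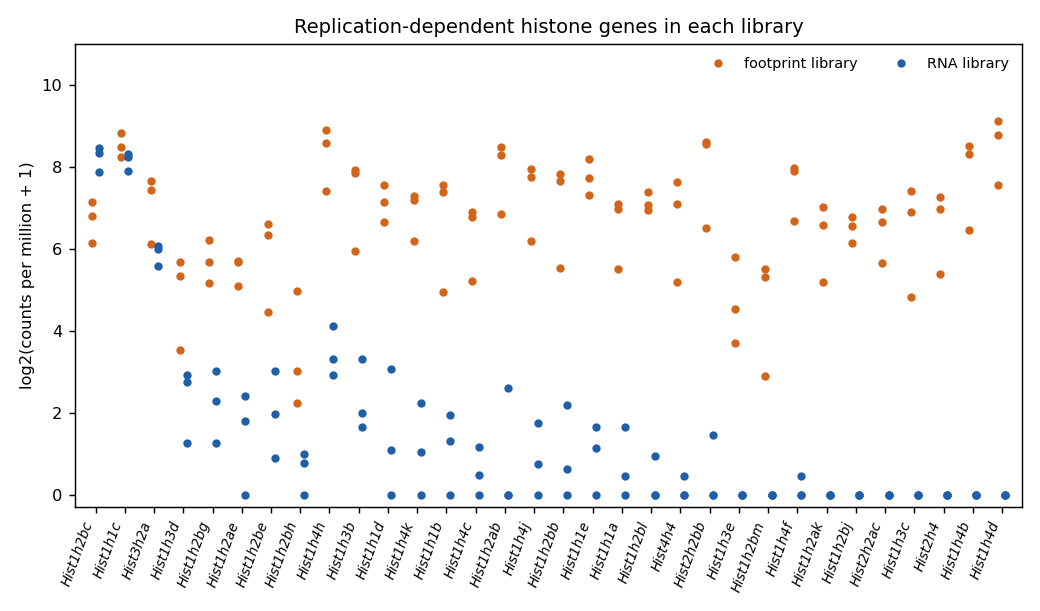
Level of each of 32 tested histone genes in each footprint library (orange) and each RNA library (blue), as log2(CPM + 1), ordered by the log2 difference. At the left Hist1h2bc, Hist1h1c and Hist3h2a have RNA at or above their footprints or close to them, and in the 9 genes with 0 RNA counts the blue points lie at 0 while footprints do not.

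Cell cycle genes gave 9 higher and 1 lower of 46 (median 0.90), or 19.6% and 2.17% against 13.5% and 12.4% of all genes. Without footprint library 1 they gave 17 higher and 1 lower (15.1% and 18.4% of all genes). Mki67, the proliferation marker, stood at 162, 184 and 179.9 CPM in footprints and 25.7, 19.8 and 46.9 CPM in RNA, without overlap (2.52 ± 0.36, adjusted p = 0.00391). Its coding sequence has 9534 bases, and its length-adjusted value was -0.07. Cenpe, a kinetochore motor, was higher at 4.62 ± 0.52 (adjusted p = 0.00202), and Smc2, a condensin subunit, at 3.25 ± 0.56 (adjusted p = 0.00737). These were the 2 that also passed after length adjustment, at 2.46 and 2.23. Gins2, of the replication helicase, was lower at -2.27 ± 0.55 (adjusted p = 0.0223).

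Secreted matrix proteins, the scaffold on which epithelial cells rest, were high in footprints per RNA: of 18 tested 9 were higher and 0 lower, with a median of 1.67. Fn1, fibronectin, stood at 2535, 3028 and 2456 CPM in footprints and at 375, 295 and 172 CPM in RNA. The groups were far apart (3.25 ± 0.35, adjusted p = 0.00181). Thbs1, thrombospondin, stood at 3212, 4395 and 3977 CPM against 652, 572 and 388 CPM (2.84 ± 0.30, adjusted p = 0.00181). Hspg2, perlecan, was higher at 2.96 ± 0.48 (adjusted p = 0.00584), as were the laminin chains Lama5 (2.38), Lama3 (2.16), Lamb1 (2.11) and Lamc1 (2.02). With a median coding length of 4917 bases these are long genes, and after length adjustment the median was -0.03 and 3 were higher, among them Thbs1 (1.85, adjusted p = 0.00954) and Fn1 (1.23, adjusted p = 0.0464), while Hspg2 was at -0.18. Col4a1 of the basement membrane did not pass (0.55 ± 0.57, adjusted p = 0.515). Only 11.9% of its footprints but nearly all of its RNA counts lay on protein-coding transcripts, and on those its value was -2.21 (adjusted p = 0.081).

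Cytoskeletal genes gave 9 higher and 5 lower of 35 (median 0.40), or 25.7% and 14.3% against 13.5% and 12.4% of all genes. The higher ones had coding lengths of 1734 bases or more and the lower ones of 519 or less. Myh9, the heavy chain of non-muscle myosin, stood at 10425, 11630.3 and 12362 CPM in footprints against 985, 916 and 333 CPM in RNA (3.94 ± 0.46, adjusted p = 0.00208). Myl6, a light chain of the same motor, went the other way: 834, 820.3 and 709 CPM against 2459, 2601 and 2310.2 CPM (-1.64 ± 0.22, adjusted p = 0.00313). Neither overlapped. Length adjustment kept Myh9 higher at 2.16 (adjusted p = 0.0191) and put Myl6 at -0.81, at the threshold (adjusted p = 0.05). Rdx, radixin, which ties actin to the membrane, was higher at 2.64 ± 0.30 (adjusted p = 0.00195) and held its value after length adjustment (2.52, adjusted p = 0.00458). Plec, the giant linker plectin, was higher at 3.82 ± 0.66 (adjusted p = 0.0072), with footprint library 1 at 1038 CPM against 206 and 311 CPM in the others and a length-adjusted 0.68. Tmsb4x, the small actin-binding thymosin, was lower at -1.29 ± 0.29 (adjusted p = 0.0185; length-adjusted -0.10), and with length offsets it turned to 0.40. Krt8 and Actb, with footprints near 10418 ± 3961 and 5995 ± 509 CPM (SD, n = 3), did not pass at 0.40 ± 0.35 and 0.45 ± 0.24.

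**Figure D5:**
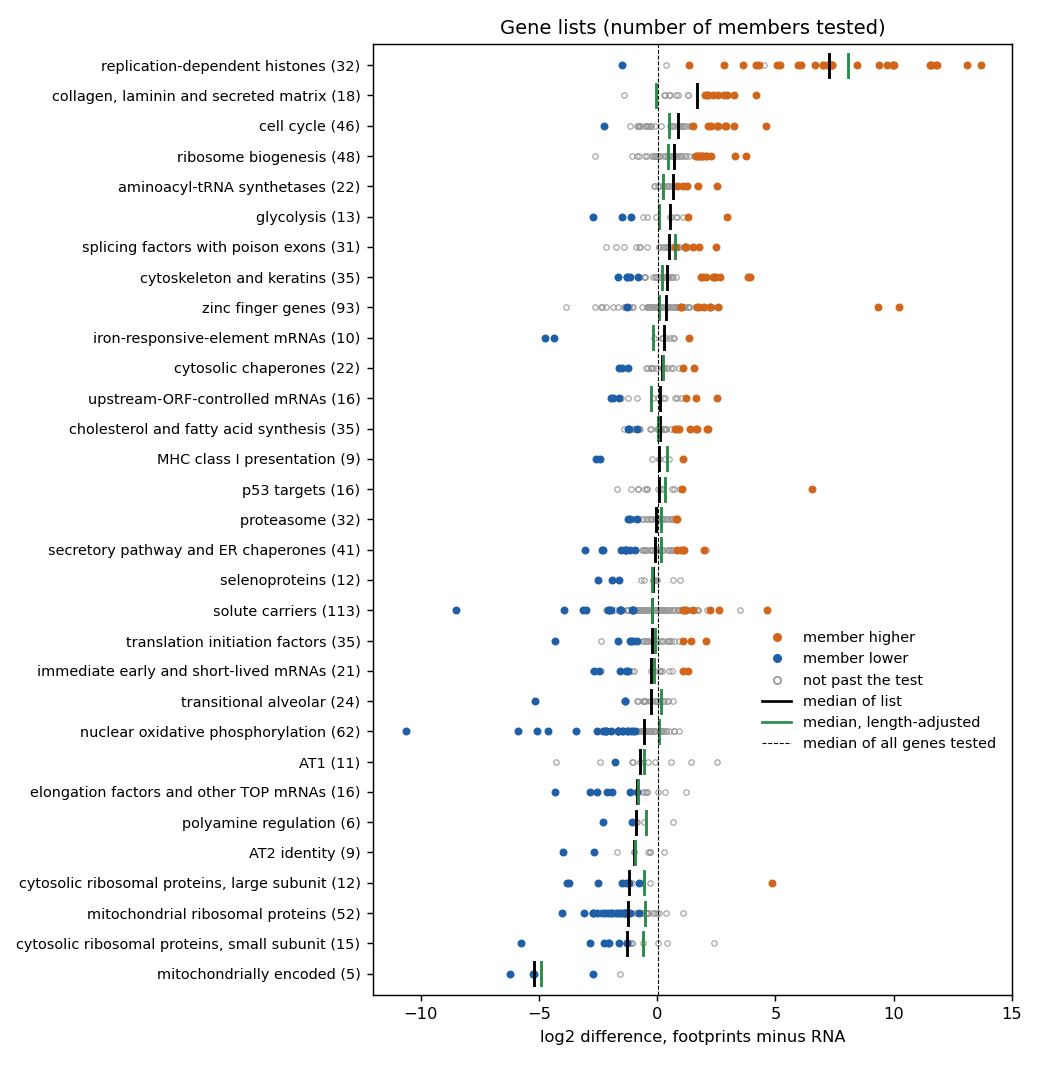
Log2 difference of each tested member of 31 gene lists (rows, number tested in parentheses), filled where the test was passed, with the list's median in black, its length-adjusted median in green and the median of all genes dashed. Histones lie to the far right and mitochondrially encoded genes to the far left, and the matrix and nuclear oxidative phosphorylation medians move to near 0 after length adjustment.

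Genes of the secretory pathway gave 5 higher and 9 lower of 41 (median -0.07). Hyou1, a chaperone of the endoplasmic reticulum, stood at 445, 479 and 522 CPM in footprints against 142, 137 and 90.9 CPM in RNA (1.96 ± 0.25, adjusted p = 0.00277; length-adjusted 1.19, adjusted p = 0.0232). Dad1, a small subunit of the oligosaccharide transferase, was lower, at 52.3, 64.5 and 48.3 CPM against 272, 281 and 264 CPM (-2.31 ± 0.23, adjusted p = 0.00179; length-adjusted -1.37). Both held with each library left out. Herpud1, of ER-associated degradation, was lower at -3.05 ± 0.40 (adjusted p = 0.00293).

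Among 22 cytosolic chaperones 2 were higher and 3 lower (9.09% and 13.6%, against 13.5% and 12.4% of all genes). Hspa8, the constitutive HSP70, stood at 2095, 2191 and 2006 CPM in footprints and at 4616, 4613 and 5765 CPM in RNA (-1.25 ± 0.23, adjusted p = 0.00869), and Hsp90aa1 at 423, 679 and 445 CPM against 1604, 1496 and 1238 CPM (-1.49 ± 0.27, adjusted p = 0.00897). The 3 lower genes, Bag3 the third, were also the 3 that stayed lower after length adjustment (-1.87 to -1.49). Hsph1 (1.54 ± 0.39) and Hspa4 (1.09 ± 0.27), exchange factors that work with HSP70, were higher, and neither passed after length adjustment. Of 32 proteasome genes 2 were higher and 3 lower (6.25% and 9.38%), all within 1.25 of 0. Psme4, a proteasome activator, was higher at 0.83 ± 0.21 (adjusted p = 0.0274) but lower among genes of like length (-0.85, adjusted p = 0.0409).

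Antigen presentation genes of MHC class I included 2 lower and 1 higher of 9 (22.2% and 11.1%, against 12.4% and 13.5% of all genes). B2m, the light chain of the complex, stood at 135, 100.2 and 105 CPM in footprints against 612, 661 and 549.5 CPM in RNA (-2.42 ± 0.24, adjusted p = 0.00179). Tapbp, tapasin, which loads peptides, was lower at -2.57 ± 0.39 (adjusted p = 0.00457). Both were also lower after length adjustment (adjusted p = 0.00954 for B2m and 0.00999 for Tapbp).

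Of 13 glycolysis genes 2 were higher, the hexokinases Hk1 and Hk2, and 3 were lower, with a median of 0.54 (0.08, with 1 higher and 2 lower, after length adjustment). Before length adjustment the shares were 15.4% and 23.1%, against 13.5% and 12.4% of all genes. Without footprint library 1 the counts were 6 higher and 3 lower. Hk2 stood at 116, 291 and 360.4 CPM in footprints against 29.3, 33.0 and 37.7 CPM in RNA (2.94 ± 0.43, adjusted p = 0.0043; length-adjusted 2.28, adjusted p = 0.0165). Eno1, enolase, stood at 257, 466 and 383 CPM against 2172, 2169 and 2871 CPM (-2.70 ± 0.31, adjusted p = 0.00202; length-adjusted -2.51). Only 32.1% of the Eno1 footprints lay on protein-coding transcripts, where its value was -4.45. Gpi1 (-1.09 ± 0.22) and Tpi1 (-1.47 ± 0.36) were lower too.

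Lipid synthesis, which supplies surfactant in AT2 cells, gave 8 higher and 3 lower of 35 (median 0.12), or 22.9% and 8.57% against 13.5% and 12.4% of all genes. Fasn, fatty acid synthase, stood at 908, 996 and 953 CPM in footprints against 261, 259 and 134 CPM in RNA (2.13 ± 0.31, adjusted p = 0.00407), and its length-adjusted value was -0.05. Acsl4, which activates long-chain fatty acids, was higher at 2.17 ± 0.35 (adjusted p = 0.00593) and remained so (1.89, adjusted p = 0.0163). The sterol enzymes Msmo1 (-1.23 ± 0.24), Ebp (-1.20 ± 0.26) and Sc5d (-0.87 ± 0.24) were lower.

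AT2 identity genes included 2 lower and 0 higher of 9, with a median of -0.97 (-0.94 after length adjustment). The share lower was 22.2%, against 12.4% of all genes. Ctsh, cathepsin H, which processes surfactant protein, stood at 593, 217 and 229 CPM in footprints against 5209, 5759 and 5186 CPM in RNA (-3.96 ± 0.46, adjusted p = 0.00216; length-adjusted -3.53). Muc1, a mucin of the apical membrane, was lower at -2.68 ± 0.55 (adjusted p = 0.0127). Nkx2-1, the lung lineage factor, stood at 359, 78.1 and 62.4 CPM against 407, 403 and 174 CPM and did not pass (-0.99 ± 0.69, adjusted p = 0.325), but was lower at -2.27 (adjusted p = 0.00941) without footprint library 1. Cldn18, the alveolar tight junction claudin, is counted in the AT1 list below and not in the AT2 list. It behaved like Nkx2-1, at 196, 12.5 and 3.36 CPM against 1629.9, 1899.6 and 441 CPM (-4.28 ± 1.39, adjusted p = 0.0583; -7.44, adjusted p = 0.003, without that library). Footprint library 1 was the highest of the 3 in Ctsh, Muc1, Nkx2-1 and Cldn18. Sftpb (-1.70 ± 0.54, adjusted p = 0.0536) and Abca3, the lipid pump of lamellar bodies (0.28 ± 0.36, adjusted p = 0.599), did not pass. Of 11 AT1 genes 1 was lower, Aqp5 at -1.79 ± 0.41 (adjusted p = 0.0198), and of 24 genes of the transitional alveolar state 3 were lower, Sprr1a (-5.15), Lgals3 (-1.37) and Nupr1 (-1.35), with 0 higher in both lists. The shares lower were 9.09% and 12.5%, near the 12.4% of all genes, of which 13.5% were higher. After length adjustment 0 AT1 genes and 1 transitional gene were lower, and Aqp5 (-1.15, adjusted p = 0.108), Lgals3 (-0.79, adjusted p = 0.0744) and Nupr1 (-0.30, adjusted p = 0.523) did not pass. Without footprint library 1 the AT1 list had 4 lower and a median of -1.70 instead of -0.71, the transitional list 3 higher and 4 lower, and the AT2 list 3 lower and a median of -1.39.

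Short-lived mRNAs of the immediate early response gave 2 higher and 5 lower of 21 (9.52% and 23.8%, against 13.5% and 12.4% of all genes). After length adjustment 4 were higher and 2 lower (5.89% and 6.35% of all genes). Ier3 stood at 113, 106 and 127 CPM in footprints against 566, 662 and 987 CPM in RNA (-2.68 ± 0.29, adjusted p = 0.00181), and Jund, an AP-1 subunit, was lower at -2.45 ± 0.37 (adjusted p = 0.00448). Both stayed lower after length adjustment (-1.87 and -2.04). Splicing factors whose genes carry poison exons gave 8 higher and 0 lower of 31 (median 0.49) and 10 higher and 0 lower of 29 after length adjustment (median 0.77). Snrnp70, of the U1 particle, stood at 988, 687 and 748 CPM in footprints against 229, 245 and 235 CPM in RNA (1.77 ± 0.24, adjusted p = 0.00302; length-adjusted 1.94), and Hnrnpl was also higher (adjusted p = 0.00813; length-adjusted 1.37). On protein-coding transcripts alone this list had 9 higher (11.7% of all genes) and 2 lower (11.9%), with a median of 0.28. Of 16 p53 targets 2 were higher and 0 lower (12.5% higher, near the 13.5% of all genes). Trp53 itself stood at 74.8, 106 and 68.8 CPM against 111, 114 and 216 CPM and did not pass (-0.81 ± 0.34, adjusted p = 0.121), nor did Cdkn1a (-0.51 ± 0.23, adjusted p = 0.149) or Myc (0.62 ± 0.40, adjusted p = 0.287).

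Of the 2 large families, 113 solute carriers had 7 higher and 13 lower (6.19% and 11.5%, against 13.5% and 12.4% of all genes; median -0.21) and 93 zinc finger genes 10 higher and 1 lower (10.8% and 1.08%; median 0.37). Slc25a39, a mitochondrial carrier, had a mean of 47.9 ± 7.59 CPM in footprints and 419 ± 11.9 CPM in RNA (SD, n = 3) (-3.12 ± 0.23, adjusted p = 0.00153), and Slc4a4, a bicarbonate transporter, was higher at 2.61 ± 0.28 (adjusted p = 0.00181; length-adjusted 1.73). Both moved with footprint library 1, without which the solute carriers had 7 higher and 24 lower and the zinc finger genes 8 and 7. Other lists moved with it too, against 15.1% higher and 18.4% lower among all genes: without it secretory genes had 9 higher and 10 lower, cytosolic chaperones 6 and 3, proteasome genes 7 and 3, MHC class I genes 3 and 2, lipid synthesis 8 and 7, and p53 targets 1 and 3. After length adjustment the counts were 2 higher and 3 lower in the secretory list, 3 and 1 in the proteasome list, 4 and 2 in lipid synthesis, 4 and 1 in the cytoskeleton list and 1 and 2 among initiation factors. With library sizes from all transcripts the medians of 6 lists turned from above to below 0: uORF-controlled mRNAs (-0.16), iron-responsive-element mRNAs (-0.07), cytosolic chaperones (-0.13), lipid synthesis (-0.24), p53 targets (-0.24) and MHC class I (-0.24), against -0.32 for all genes.

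Among genes with at least 50 mean counts in the higher assay and 20 in the lower, the differences reached from 11.13 (Mettl26) to -6.23 (mt-Nd1). The largest of them outside the lists are given here, down to Lpp among the higher and Chchd10 among the lower genes. Mettl26, a small predicted methyltransferase (chr17:25875500-25877163, plus strand), held 1090276, 101080 and 52337 footprint counts against 993, 1316 and 336 RNA counts (11.13 ± 1.89, adjusted p = 0.00687; 7.58 without footprint library 1). In 1 Mettl26 transcript lay 1090260, 101062 and 52314 of these footprints, while a second coding transcript with 620, 689 and 227 RNA counts had 0. Tmem38b, an ion channel of the endoplasmic reticulum, was high at 5161, 5370 and 41870 counts against 557, 376 and 195 (6.73 ± 0.83, adjusted p = 0.00251). In each gene a different footprint library was far above the others. What these footprint reads are was not tested. Kmt2d, a histone methyltransferase, followed at 5.87 ± 1.22 (adjusted p = 0.0136), with 1403 CPM of footprints in library 1 against 161 and 148 CPM in the others and a value of 3.93 without that library. Mdn1, a giant ATPase of ribosome assembly with 16770 coding bases, stood at 136, 289.5 and 254 CPM against 3.87, 5.24 and 8.46 CPM (5.32 ± 0.46, adjusted p = 0.00153; length-adjusted 1.77, adjusted p = 0.0309). The kinase Hipk2 (5.15 ± 1.28, adjusted p = 0.0253; 2.35 without footprint library 1), the ubiquitin ligase Rnf213 (5.06 ± 0.70, adjusted p = 0.0036) and the nuclear envelope protein Syne2 (4.94 ± 0.89, adjusted p = 0.0081) came next. After length adjustment Kmt2d (2.32, adjusted p = 0.191), Hipk2 (4.13, adjusted p = 0.0693) and Rnf213 (1.64, adjusted p = 0.125) did not pass. Syne2 did (3.44, adjusted p = 0.0373). Lpp, a LIM protein of cell adhesions with a shorter coding sequence of 1842 bases, stood at 373, 237 and 249 CPM against 13.1, 15.1 and 6.34 CPM (length-adjusted 4.42). At the low end, Mif, a small cytokine, stood at 10.5, 12.2 and 33.2 CPM against 587, 587 and 947 CPM (-5.21 ± 0.53, adjusted p = 0.00181). Cst3, the protease inhibitor cystatin C, was lower at -4.17 ± 0.69 (adjusted p = 0.0062), and Chchd10, of the mitochondrial intermembrane space, at 29.8, 20.6 and 15.8 CPM against 402, 409 and 293 CPM (-4.09 ± 0.33, adjusted p = 0.00153). Mt2, a metallothionein, was lower at -5.24 ± 1.06 (adjusted p = 0.0127), with 101 CPM of footprints in library 1 against 5.89 and 11.7 CPM in the others.

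The ORF lists of the 2 further AT2 samples held an annotated coding ORF for 11.7% and 31.6% of the genes called higher, 12.01% and 27.0% of those called lower, and 12.5% and 26.6% of all genes tested. In these ORFs 42.6% and 44.7% of P-sites of the higher genes were in the reading frame, against 47.4% and 50.7% in the lower genes and 46.2% and 47.4% in all. The frame of translation is 1 of 3 possible frames, but these ORFs were listed because they were called translated, so the shares are no test of translation. The higher and lower genes also differ in coding length and in P-sites, for which the shares were not adjusted. These ORFs were called in samples listed apart from the 6 compared here, whether from the same cultures is not stated, and the differences between the shares were not tested.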

How the data were processed

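For each library the authors deposited a table of estimated counts per transcript, together with TPM (transcript abundance relative to all transcripts), made with kallisto per the submitters' processing notes. Neither its version nor the transcript release was found in the sources used here. The ORF lists the authors deposited give, per the file headers, P-site counts by reading frame and the lengths of each transcript's parts, on mm10 as the same notes have it. No source used here names the program that called the ORFs. Transcript and gene names in these lists paired 22509 of 118489 transcripts with 7261 genes, and counts on the others were not used.

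Gene totals of the estimated counts were rounded to integers. edgeR 4.0.16 (R 4.3.3; TMM scaling over paired genes, its default filter on low counts) fitted footprints against RNA with the quasi-likelihood test, Benjamini-Hochberg adjustment and a threshold of 0.05. CPM are on the scaled library sizes. A gene at 0 in one assay is given as a bound at 3 counts over the 3 libraries. Other settings used DESeq2 1.42.0, and limma 3.58.1 on log2(TPM + 1); 19 were tried, of which the length adjustment (a loess curve of span 0.5 on log2 coding length, as an offset) and the fit on protein-coding transcripts were chosen after seeing the data. Tables were handled in Python 3.11.15 with pandas 2.3.3.

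On simulated data with 200 genes changed among 6368, the fit recovered 6% of 2-fold and 65% of 4-fold changes and called 4 unchanged genes, so many changes of 2-fold are below its reach. The lowest mean chi-square between libraries of one assay showed no library deposited again under another name. Library numbers do not pair the assays (values in the closing section). The members and gene lists were chosen with earlier results of these data known. Named genes are the 12 largest differences in each direction (mean of at least 50 counts in the higher assay and 20 in the lower, no overlap), at most 3 of each list in either direction, and a set of fixed genes; other members were named after their values were seen. Gene positions and start windows are from RefSeq on GRCm38.p6, matched by symbol. Some members of the lists are not reported here.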

Additional observations from a re-analysis of the deposited data

How the results depend on the processing

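The 889 genes higher and 816 lower became 526 and 1181 with library sizes from all transcripts, and 404 higher with TPM, where 1219 genes were called. With genes in an AT2 ORF list only they were 427 and 447 (874 in all), and with transcripts in those lists only 334 and 369 (703 in all), from 3002 and 2700 genes tested. A test against a 2-fold difference gave 312 and 237 (549 in all), and the length adjustment 382 and 412 (794 in all). With each library left out in turn the counts ran from 393 to 1021 higher, from 335 to 1244 lower and from 728 to 2265 in all. DESeq2 called 1179 and 1128, and length offsets 1281 and 800. The library number as a block gave 928 and 869 (1797 in all, 1529 of them shared with the fit without it); the same number did not pair the assays, since the deviations of same-numbered libraries correlated at 0.24, -0.19 and 0.25 and 1 of 3 libraries correlated best with its own number.

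On transcripts in the AT2 ORF lists alone the direction turned for Fth1 (4.63), Atf4 (1.56), Eif5b (-0.23) and Myl12b (0.38), and on protein-coding transcripts alone for Eif5b (-0.035). After length adjustment it turned for Eif4g1 (-0.35), Psme4 (-0.85), Hspg2 (-0.18), Fasn (-0.055) and Mki67 (-0.067), and with length offsets for Tmsb4x (0.40). Beyond the settings' own construction, the cause was not tested. Of all values of named genes under these settings 2074 kept direction and side of the threshold, 438 no longer passed, 19 newly passed and 11 turned. With 3 libraries an assay, a gene that missed the threshold is not shown to be equal in both.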

Other observations

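Transcripts other than protein-coding ones held a larger share of footprints than of RNA in each library. Protein-coding transcripts took 92.8%, 85.6% and 85.6% of paired footprint counts and 95.1%, 95.3% and 94.98% of paired RNA counts. Retained-intron transcripts took 3.29% to 5.46% of footprints and 1.76% to 1.80% of RNA, and transcripts marked for nonsense-mediated decay 2.66% to 5.98% and 2.12% to 2.40%. Footprint library 1, in which Mettl26 took 52.1% of the paired counts, was the lowest of the footprint libraries in both of the latter classes. Of 103 tested genes paired through no protein-coding transcript, 31 were higher and 3 lower in footprints per RNA. They made up 3.49% of the genes called higher and 0.368% of those called lower, against 1.56% of all genes tested. A transcript was paired only if an ORF called from ribosome positions, in AT2 or tumor samples, was listed on it. Transcripts of other kinds thus entered through footprints, so the shares in this paragraph are partly set by the pairing and are given as a description.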
